A study of Homo sapiens with 18 samples.

Results

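The genes of the proteasome subunits and of their dedicated partners were followed in 3 pancreatic cancer cell lines in which OFD1 was knocked down. They were chosen by symbol, as every row named PSMA, PSMB, PSMC, PSMD, PSME, PSMF or PSMG with a number, leaving out the interferon-inducible subunits PSMB8 and PSMB9. This gave 46 of the 26668 gene symbols in the expression table. PSMA8 and PSMB11, the subunits of testis and thymus, were listed at 0 in all 18 libraries, and the other 44 genes passed a mean of at least 1 FPKM in each line (FPKM is the number of reads on a gene, scaled by the length of the gene and by the reads of the library).

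RNA sequencing covered 3 control and 3 OFD1 knockdown libraries each of PANC-1, MIA PaCa-2 and PaTu 8988T, which are established human pancreatic cancer lines. The knockdown libraries came from cells with a Tet-on shRNA against OFD1, a protein of centrosomes, centriolar satellites and the base of the primary cilium, and were taken 72 h after doxycycline had switched the shRNA on. The controls are labelled wild type, shControl and no treatment, while the methods of the study name Tet-on-shOFD1 cells given DMSO, so it cannot be told apart whether the controls were uninduced cells of the same line or cells with a control shRNA. The shRNA sequence used for these libraries is not named, and an effect of doxycycline itself and of time in culture cannot be told apart from that of the shRNA, since the series text places controls at day 0 and knockdown at day 3. In PaTu 8988T, the titles of all 6 samples name that line, whereas the source labels of replicates 2 and 3 carry other line numbers, and the titles were followed. Replicates are not said to come from separate cultures, so p-values measure the spread between these libraries, which may be technical, and in bulk RNA fewer cells of a kind and less RNA per cell cannot be told apart.

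The proteasome is the barrel-shaped protease that degrades proteins marked with ubiquitin. Its 20S core stacks rings of alpha subunits, which gate the entry, around rings of beta subunits, some of which carry the cutting sites, and the 19S regulatory particle on its ends binds ubiquitin chains, removes them and unfolds the substrate with a ring of ATPases. Dedicated chaperones assemble core and cap, alternative activators (PSME) can replace the cap, and PSMF1 is a binding partner first described as an inhibitor. Transcription of many subunit genes is raised together by NFE2L1 (NRF1), a factor that binds antioxidant response elements when proteasome activity is short.

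Promoter sequences are printed for 7 of the genes on which the results turn: the largest falls in MIA PaCa-2 (PSMD11, PSMA3 and PSMD3), 2 genes that fell in PANC-1 and MIA PaCa-2 and rose in PaTu 8988T (PSMG1 and PSMC4), the activator gene PSME3, and PSMF1, which rose. Each is a RefSeq window of 300 bases on GRCh38.p14, from 250 bases before to 50 bases after the annotated start, written along the strand of the gene. Capitals mark matches, on either strand, to the core of the antioxidant response element (TGACNNNGC), the CCAAT box (CCAAT) or the C/EBP-ATF response element (TGATGNAA). The windows lie at chr17:32444260-32444559 for PSMD11, chr14:58244593-58244892 for PSMA3, chr17:39980557-39980856 for PSMD3, chr21:39183402-39183701 on the minus strand for PSMG1, chr19:39970915-39971214 for PSMC4, chr17:42833147-42833446 for PSME3 and chr20:1113013-1113312 for PSMF1, the first of its 2 annotated starts.
PSMD11: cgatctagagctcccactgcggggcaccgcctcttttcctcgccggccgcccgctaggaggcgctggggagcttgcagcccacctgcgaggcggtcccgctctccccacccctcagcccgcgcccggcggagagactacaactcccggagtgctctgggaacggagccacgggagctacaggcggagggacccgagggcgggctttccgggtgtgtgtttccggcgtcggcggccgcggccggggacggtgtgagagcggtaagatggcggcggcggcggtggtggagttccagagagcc
PSMA3: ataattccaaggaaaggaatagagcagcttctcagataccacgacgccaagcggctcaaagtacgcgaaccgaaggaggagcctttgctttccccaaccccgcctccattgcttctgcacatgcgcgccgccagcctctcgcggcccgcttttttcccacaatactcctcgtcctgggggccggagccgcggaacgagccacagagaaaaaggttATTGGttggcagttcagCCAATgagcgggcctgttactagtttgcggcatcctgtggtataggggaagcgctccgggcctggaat
PSMD3: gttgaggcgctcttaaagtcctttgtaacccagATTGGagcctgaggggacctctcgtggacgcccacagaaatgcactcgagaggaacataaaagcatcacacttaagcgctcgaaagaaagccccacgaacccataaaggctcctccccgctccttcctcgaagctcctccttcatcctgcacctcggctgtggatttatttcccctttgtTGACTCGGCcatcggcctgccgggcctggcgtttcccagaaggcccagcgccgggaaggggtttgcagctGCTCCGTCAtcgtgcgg
PSMG1: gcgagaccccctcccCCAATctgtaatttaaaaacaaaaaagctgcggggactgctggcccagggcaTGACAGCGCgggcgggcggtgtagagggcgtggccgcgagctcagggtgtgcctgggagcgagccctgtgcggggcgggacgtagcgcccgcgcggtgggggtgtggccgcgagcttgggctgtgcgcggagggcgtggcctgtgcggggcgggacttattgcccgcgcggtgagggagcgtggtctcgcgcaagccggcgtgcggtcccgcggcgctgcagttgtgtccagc
PSMC4: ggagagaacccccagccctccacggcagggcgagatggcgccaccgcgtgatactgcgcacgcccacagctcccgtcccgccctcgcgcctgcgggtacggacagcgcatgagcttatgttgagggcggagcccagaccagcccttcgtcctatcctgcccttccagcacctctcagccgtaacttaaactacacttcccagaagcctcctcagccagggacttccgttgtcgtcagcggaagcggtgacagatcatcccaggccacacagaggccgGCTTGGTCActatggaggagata
PSME3: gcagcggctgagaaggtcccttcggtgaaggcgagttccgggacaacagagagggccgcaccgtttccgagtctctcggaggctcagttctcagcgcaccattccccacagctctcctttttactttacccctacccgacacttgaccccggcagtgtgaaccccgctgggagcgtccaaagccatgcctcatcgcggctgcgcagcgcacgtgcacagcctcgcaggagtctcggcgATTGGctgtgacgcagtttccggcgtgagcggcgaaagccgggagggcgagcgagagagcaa
PSMF1: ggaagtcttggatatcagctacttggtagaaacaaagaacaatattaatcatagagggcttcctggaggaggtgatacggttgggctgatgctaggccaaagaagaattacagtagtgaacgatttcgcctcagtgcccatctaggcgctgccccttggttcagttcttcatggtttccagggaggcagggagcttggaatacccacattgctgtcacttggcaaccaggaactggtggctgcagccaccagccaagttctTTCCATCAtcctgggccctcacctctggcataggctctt

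RefSeq windows were found for 38 of the 44 genes, 46 windows in all. The antioxidant response element core was present in 30.4% of these windows, against 13.3% of the 35116 windows of all genes, and in the windows of 14 genes, including PSMD3, PSMG1 and PSMC4. Of the 18 genes with a window that fell in both PANC-1 and MIA PaCa-2 (below), 5 held it, these 3 among them. The CCAAT box was present in 39.1% of the member windows and 34.6% of all windows. A heat shock element (GAA, TTC and GAA, each 2 bases apart) was present in 0 of 46 member windows and in 0.49% of all windows, and the C/EBP-ATF element only in PSMF1 among the members, 2.17% of their windows against 3.62% of all. In PSMD3 the 2 antioxidant matches begin at base -37 and at base 34 from the start, in PSMG1 at base -183 and in PSMC4 at base 28. The window of PSMD11, which had the largest fall in PANC-1 and MIA PaCa-2, held none of the 4 motifs. The window at the second annotated start of PSMF1, which is not printed, held none of them either. A match is a description of letters and not of binding, and its absence from a window says nothing of the factor.

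Between 32486479 and 39797537 reads were counted per library, as recovered from the deposited values, and a member had between 223 reads (PSMB10 in PANC-1) and 83591 reads (PSMC4 in PANC-1) in a library. OFD1 itself was lower after knockdown in each line, by 1.07 (SE 0.09, adjusted p = 2.7e-06) on the log2 scale in PANC-1, in MIA PaCa-2 by 0.61 (SE 0.16, adjusted p = 0.023) and in PaTu 8988T by 1.098 (SE 0.10, adjusted p = 5.5e-05). Control replicate 2 of MIA PaCa-2 stood apart. Each library was set against the mean of the other libraries of its group. The median absolute deviation over all genes was 0.39 on the log2 scale for this control, against 0.05 to 0.20 in the other 17 libraries. In this control 30 of the 44 members were off by more than 0.2, from -0.64 for PSMD12 to 0.77 for PSMB6. Without it OFD1 was lower by 0.76 (SE 0.09, adjusted p = 8.7e-05) in MIA PaCa-2, and values without it are given below for the counts and for the members whose change it moved. KRT8 and KRT18, keratins of epithelium, were at least 316 FPKM and MUC1 at least 1.16 FPKM in all libraries. In PaTu 8988T KRT19 was at most 0.02, CDH1 at most 0.38, KRT7 at most 0.48 and TFF1 at 0 FPKM. In MIA PaCa-2 EPCAM and CDH1 were at most 0.10, TFF1 at most 0.11 and KRT7 at most 1.21 FPKM. Of the mesenchymal genes, VIM was at 580 to 4968 and ZEB1 at 3.00 to 7.47 FPKM over all libraries. CDH2 was at 0 and FN1 at most 0.05 FPKM in MIA PaCa-2. Of 14 markers of leukocytes, endothelium, fibroblasts and endocrine or acinar cells, 11, 11 and 13 were under 1 FPKM in every library of PANC-1, MIA PaCa-2 and PaTu 8988T, CD3E, INS and CPA1 were at 0 in all, and the sum of the 14 ranged from 57.5 to 64.7 FPKM in control and 40.2 to 42.7 in knockdown libraries of PANC-1, from 201 to 250 and 279 to 282 in MIA PaCa-2, and from 13.8 to 14.0 and 9.90 to 11.8 in PaTu 8988T. These sums, which CD68 and COL1A1 made up in PANC-1, COL1A2 and CD68 in MIA PaCa-2 and CD68 in PaTu 8988T but for small remainders, moved with the groups, and their part in the changes below was not tested.

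The first question was whether proteasome genes changed with OFD1 knockdown within a line. In PANC-1, 32 of the 44 genes fell and 6 rose (limma on log2(FPKM + 0.1), Benjamini-Hochberg adjusted p below 0.05 over 10902 genes), whereas of all genes tested 32.2% fell and 40.1% rose. The median change of the 44 genes was -0.22 on the log2 scale, against 0.06 over all genes. In the 3 knockdown libraries the median level of the members lay 0.19 to 0.23 below the control mean, and the 3 controls lay within 0.02 of it. All 3 knockdown libraries were below all 3 controls for 32 genes, with 33.4% of all genes showing this, and above them for 6 genes, with 41.7% of all genes.

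In MIA PaCa-2, 23 genes fell and 0 rose by limma (28 and 0 at an unadjusted p below 0.05, and 21 and 0 by voom), with 21.7% and 18.7% of 10758 genes falling and rising. The median change was -0.38, against -0.03 over all genes. The groups did not overlap for 34 genes that were lower in knockdown (31.3% of all genes) and for 2 that were higher (28.0%). Without control replicate 2, 37 genes fell and 3 rose, while 39.8% and 35.4% of all genes did so, and the median change was -0.34. Without knockdown replicate 1 the number of falls was 15. The fall of more than 2-fold in PSMD11 was the only member change past the fold threshold of the study in any line (adjusted p below 0.05 with a fold below 0.5, which 3.68% of genes met in MIA PaCa-2). With control replicate 2 left out, PSMA3 passed this threshold at a log2 change of -1.003 and PSMD11 missed it at -0.99.

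In PaTu 8988T the direction was the opposite: 21 genes rose and 0 fell by limma (27 and 0 at an unadjusted p below 0.05, and 21 and 0 by voom), with 20.9% rising and 18.5% falling among 10698 genes. The changes were small, with a median of 0.12 against 0.03 over all genes. Of the 44 genes, 25 had all knockdown libraries above all controls (27.9% of all genes) and 0 had them below (24.0%). The number of rises was sensitive to single libraries, with 11 without control replicate 2, 12 without knockdown replicate 3 and up to 24 with others left out. It also came to 6 with a spread shared over all libraries, 13 with no filter on low values and 13 under quantile normalization, where the median change was 0.0795. The 3 negative changes, in PSME1 (-0.02), PSMG3 (-0.02) and PSMG4 (-0.05), were not called.

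**Figure D1:**
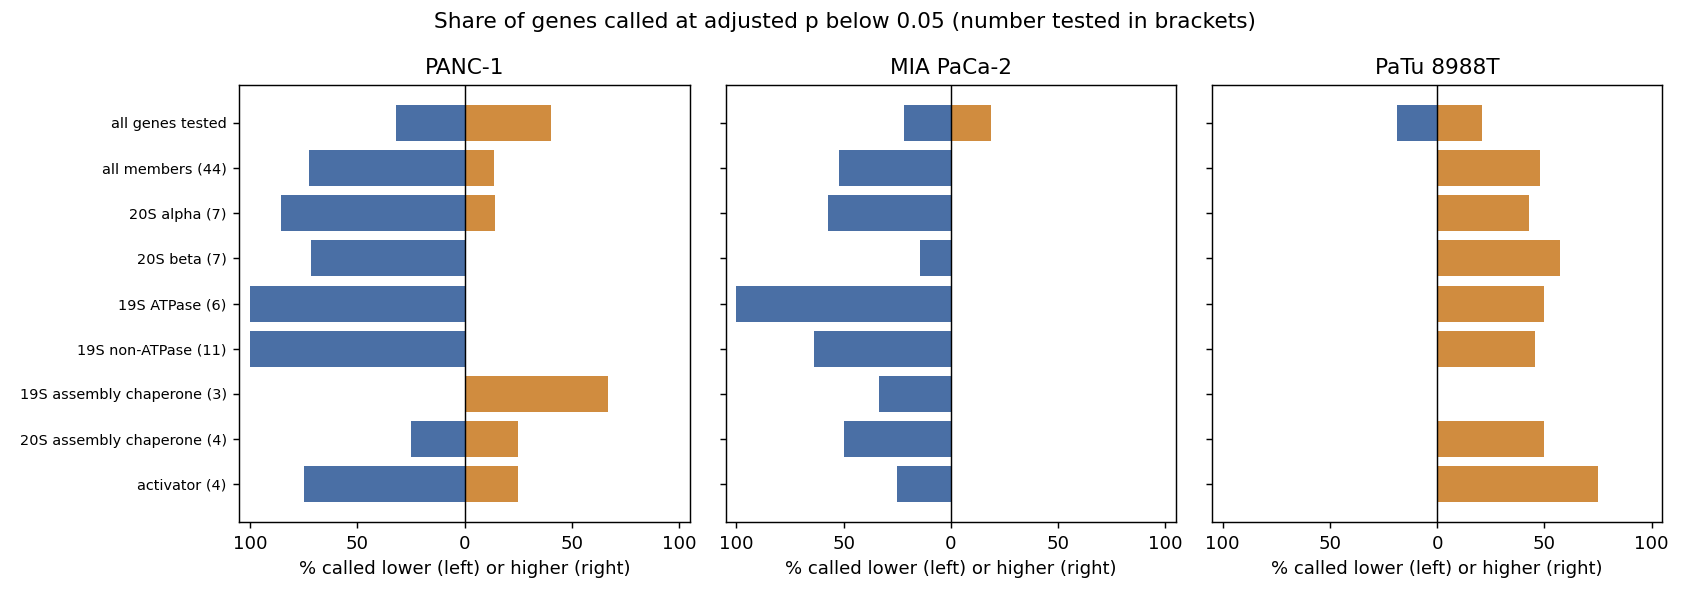
Share of genes called lower (bars to the left, blue) or higher (bars to the right, orange) in knockdown against control, in percent, for all genes tested, for the 44 proteasome genes and for each class with its number of genes; 1 panel per line. All 6 ATPase genes are called lower in PANC-1 and MIA PaCa-2, and in PaTu 8988T the calls among members are all higher.

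Across lines, 18 of the 44 genes fell in both PANC-1 and MIA PaCa-2, which 14.0% of the 9083 genes tested in all lines did. Of these 18, 9 (PSMA2, PSMA5, PSMC2, PSMC4, PSMC6, PSMD6, PSMD7, PSMD8 and PSMG1) also rose in PaTu 8988T, a pattern held by 2.81% of all genes. Without control replicate 2 of MIA PaCa-2, 29 genes fell in both lines (21.9% of all genes) and 17 of these rose in PaTu 8988T (3.86%). With all libraries 0 members were called in the same direction in all 3 lines (6.45% of all genes) and 19 in opposite directions in a pair of lines (17.0%), against 2 (10.7%), PSMF1 and PSMG2, and 22 (28.1%) without that control. PSMB4 and PSMG4 were called in no line with all libraries. Across the 44 genes the changes in PANC-1 and MIA PaCa-2 had a Pearson correlation of 0.60, against 0.53 over all 9083 genes, those in PANC-1 and PaTu 8988T of 0.16, against 0.36 over all genes, and those in MIA PaCa-2 and PaTu 8988T of 0.01, against -0.03; genes of a line share its 6 libraries and are not independent points.

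**Figure D2:**
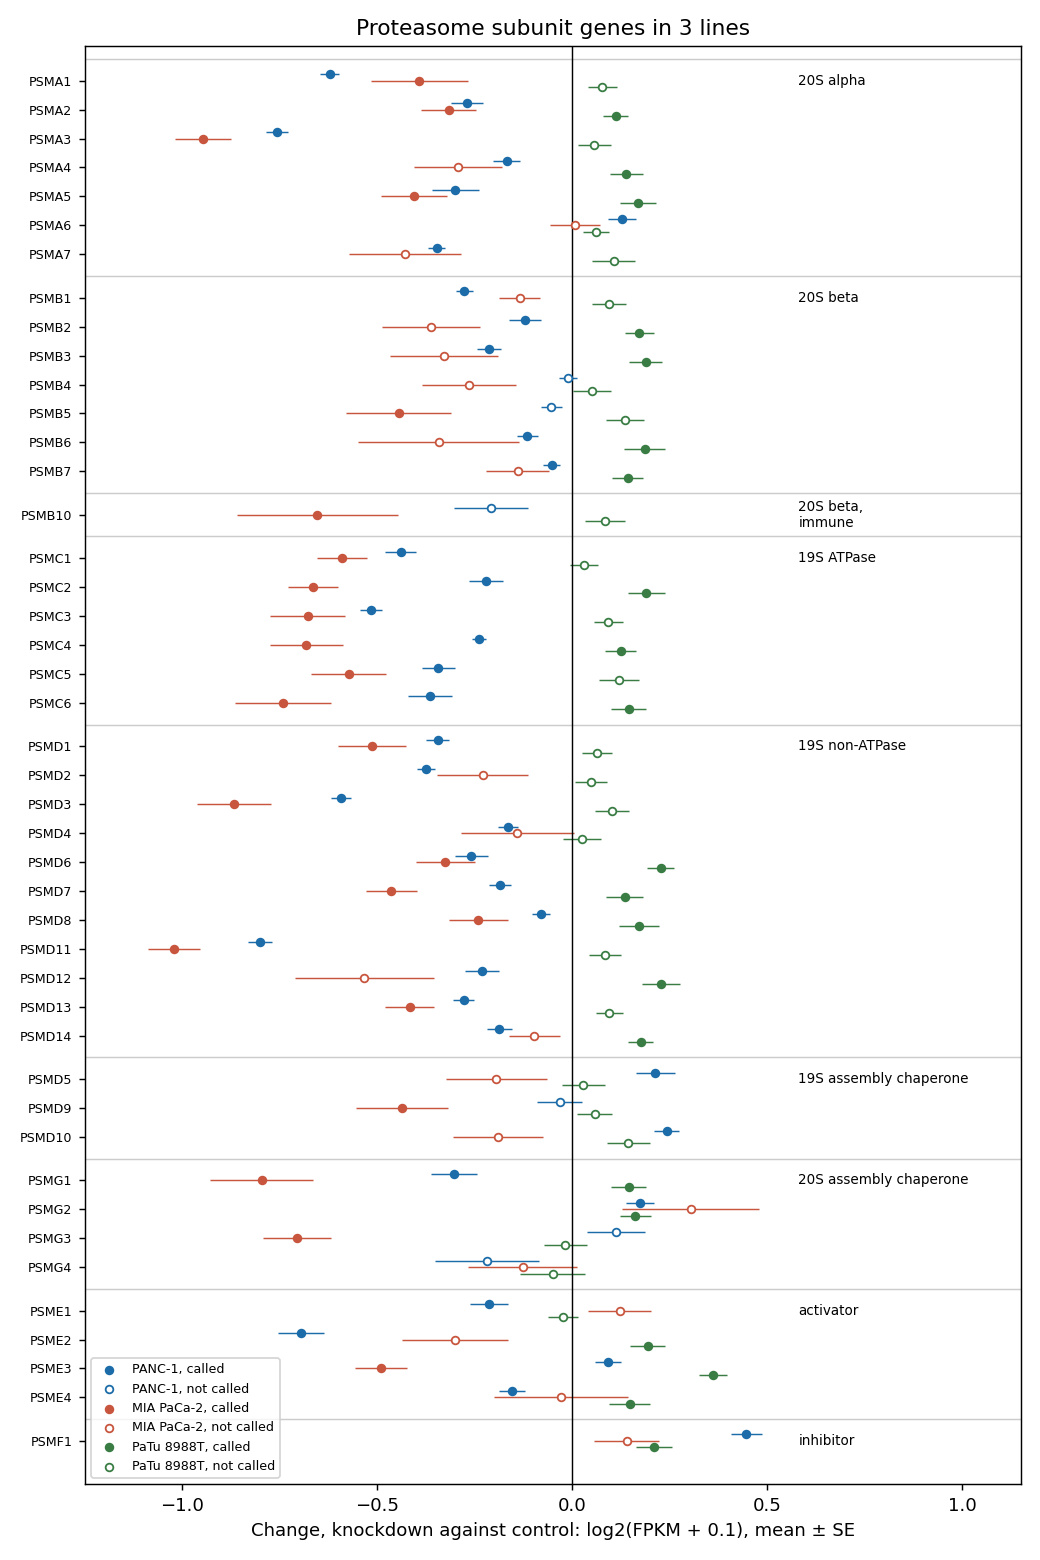
Change of each of the 44 proteasome genes in knockdown against control, as a difference of log2(FPKM + 0.1) with its SE, in PANC-1 (blue), MIA PaCa-2 (red) and PaTu 8988T (green), grouped by class. Filled points have an adjusted p below 0.05. Most blue and red points lie left of 0 and most green points right of it, with PSMF1 right of 0 in all lines.

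Counts by class, here and below, are to be read against the shares of all genes that fell and rose. These were 32.2% and 40.1% in PANC-1 and 18.5% and 20.9% in PaTu 8988T. In MIA PaCa-2 they were 21.7% and 18.7%, or 39.8% and 35.4% without control replicate 2. Among the 7 expressed alpha subunits of the core, 6 fell in PANC-1 and only PSMA6 rose (log2 change 0.13). In MIA PaCa-2, 4 fell with 3 controls and 6 with control replicate 2 left out, and in PaTu 8988T 3 rose. PSMA3 had the largest change of the class in PANC-1 and MIA PaCa-2. It lies at chr14:58244831-58272012 (GRCh38, GENCODE v29). Its FPKM in PANC-1 was 68.8, 66.7 and 68.6 in the controls and 40.8, 40.4 and 39.4 after knockdown, a log2 change of -0.76 (SE 0.03, adjusted p = 8.8e-09). The MIA PaCa-2 values were 157, 141 and 159 against 80.7, 79.8 and 76.3, a change of -0.95 (SE 0.07, adjusted p = 3.0e-04). In both lines every knockdown library was below every control. In PaTu 8988T the values were 127, 118 and 116 against 128, 121 and 126, the groups overlapped, and the change of 0.06 (SE 0.04, adjusted p = 0.32) was within the spread.

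The 7 constitutive beta subunits, which include the catalytic PSMB5, PSMB6 and PSMB7, showed smaller changes. In PANC-1, 5 fell, with a class median of -0.12 and a range from -0.28 (PSMB1) to -0.01 (PSMB4). In MIA PaCa-2 only PSMB5, the subunit that bortezomib binds, fell by the test (log2 change -0.44), although all 7 changes were negative. Without control replicate 2, 6 beta genes fell there, but the class median came to -0.12 from -0.33, so the size of the beta changes in this line rests on that library: PSMB6 was 153, 261 and 153 FPKM in the controls and 146, 139 and 147 after knockdown. In PaTu 8988T, 4 of the 7 rose, from a class range of 0.05 (PSMB4) to 0.19 (PSMB3). PSMB10 is the immune counterpart of PSMB7 and the only other expressed beta gene among the members, from which PSMB8 and PSMB9 were left out. It had a change of -0.65 in MIA PaCa-2 with 3 controls and -0.43 without control replicate 2, and was not called in the other lines.

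The 6 ATPases of the 19S base, PSMC1 to PSMC6, thread the substrate into the core. All 6 fell in PANC-1, from -0.52 (PSMC3) to -0.22 (PSMC2), and all 6 fell in MIA PaCa-2, from -0.74 (PSMC6) to -0.57 (PSMC5). Without control replicate 2 all 6 also fell in MIA PaCa-2, from -0.88 (PSMC6) to -0.47 (PSMC5). Exons of NRDE2 on the opposite strand cover 75.8% of the exon bases of PSMC1, whose reads are therefore uncertain. In PaTu 8988T, 3 rose and the other 3 had changes of 0.03 to 0.12 that were not called. PSMC6 (chr14:52707172-52728587) was at 15.6, 15.8 and 16.5 FPKM in PANC-1 controls and 12.3, 13.4 and 11.7 after knockdown, a change of -0.36 (SE 0.06, adjusted p = 2.0e-04). Values in MIA PaCa-2 were 40.5, 30.5 and 40.4 against 21.7, 22.4 and 21.9, a change of -0.74 (SE 0.12, adjusted p = 0.0045) that came to -0.88 without control replicate 2, the lowest of the controls. The PaTu 8988T values were 28.3, 28.6 and 26.4 against 31.5, 29.8 and 30.8, a rise of 0.15 (SE 0.04, adjusted p = 0.029). That call was lost under quantile normalization (0.11), with no filter on low values, with a spread shared over all libraries, and without control replicate 1 (0.16), control replicate 3 (0.11), knockdown replicate 1 (0.13) or knockdown replicate 3 (0.14). The groups of PSMC6 did not overlap in any line.

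PSMC2 (chr7:103344254-103369395) showed the same order. In PANC-1 it was 47.9, 50.4 and 46.6 FPKM in the controls against 40.8, 39.6 and 43.9, a change of -0.22 (SE 0.04, adjusted p = 0.0013). In MIA PaCa-2 it was 68.4, 71.4 and 67.4 against 44.1, 43.2 and 43.2, a change of -0.67 (SE 0.06, adjusted p = 6.0e-04), or -0.64 without control replicate 2. In PaTu 8988T it was 28.2, 26.8 and 25.7 against 31.4, 30.9 and 29.7, a rise of 0.19 (SE 0.05, adjusted p = 0.010). Knockdown libraries lay below controls in the first and second of these lines and above them in PaTu 8988T.

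PSMC4 (chr19:39971005-39981441) stood out by its level. In PANC-1 its controls were at 1259, 1289 and 1269 FPKM, the highest of all members, and its knockdown libraries at 1082, 1100 and 1055, a fall of 0.24 on the log2 scale (SE 0.02, adjusted p = 1.4e-06). The MIA PaCa-2 values were 130, 159 and 128 against 86.5, 85.6 and 86.3, a change of -0.68 (SE 0.09, adjusted p = 0.0022), or -0.58 without control replicate 2. The PaTu 8988T values were 55.6, 55.3 and 56.3 against 57.8, 62.6 and 61.9, a rise of 0.12 (SE 0.04, adjusted p = 0.034). The call was lost under those same 3 settings (0.08 by quantile normalization) and without control replicate 1 (0.12), 2 (0.12) or 3 (0.13) or knockdown replicate 2 (0.10) or 3 (0.11). The same gene length of 1754 bases had been used for PSMC4 in all lines. Its PANC-1 controls were 9.16 times those of MIA PaCa-2 and 22.8 times those of PaTu 8988T. For other genes the lengths used were not always the same. Those of PANC-1 equalled those of MIA PaCa-2 for 29 of the 44 members and 52.7% of genes. Those of MIA PaCa-2 and PaTu 8988T were equal for all 44 members and 96.2% of genes. The part of this in the level of PSMC4 was not tested.

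All 11 non-ATPase subunits of the 19S particle that are among the 44 genes fell in PANC-1, from -0.80 (PSMD11) to -0.08 (PSMD8). In MIA PaCa-2 7 fell, or 10 without control replicate 2, and in PaTu 8988T 5 rose. PSMD11, a lid subunit that clamps the cap to the core, lies at chr17:32444261-32483318. It was at 51.4, 49.8 and 50.6 FPKM in PANC-1 controls and 28.6, 29.2 and 29.3 after knockdown (log2 change -0.80, SE 0.03, adjusted p = 7.9e-09). Values in MIA PaCa-2 were 73.9, 77.8 and 72.2 against 36.9, 37.4 and 35.8 (-1.02, SE 0.07, adjusted p = 1.9e-04), and those in PaTu 8988T were 44.3, 42.4 and 44.8 against 48.0, 46.6 and 45.0 (0.08, SE 0.04, adjusted p = 0.13). In PANC-1 and MIA PaCa-2 all knockdown libraries were below all controls. In PaTu 8988T the groups did not overlap, but the lowest knockdown library was only just above the highest control and the test made no call. An antisense gene, AC005899.8, covers 9.38% of the exon bases of PSMD11.

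PSMD3, another lid subunit, lies at chr17:39980797-39997960. It was at 94.9, 98.6 and 96.2 FPKM against 63.3, 64.6 and 64.2 in PANC-1 (-0.59, SE 0.03, adjusted p = 2.1e-08). In MIA PaCa-2 it was at 162, 199 and 160 against 94.4, 96.0 and 93.6 (-0.87, SE 0.10, adjusted p = 9.4e-04), or -0.77 without control replicate 2, whose value was the highest. In PaTu 8988T it was at 80.8, 79.4 and 83.3 against 83.1, 91.6 and 86.9, with overlap, and the change of 0.10 was not called (SE 0.04, adjusted p = 0.086), except at 0.14 without knockdown replicate 1.

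The lid subunits PSMD6 and PSMD12 had the largest rises in PaTu 8988T after PSME3. PSMD6 (chr3:64010549-64024010) was at 45.9, 45.0 and 45.3 FPKM against 53.3, 54.0 and 52.1 there, a rise of 0.23 (SE 0.03, adjusted p = 9.5e-04). In PANC-1 it was at 59.3, 59.2 and 61.7 against 50.2, 53.1 and 47.3, a change of -0.26 (SE 0.04, adjusted p = 2.8e-04), and in MIA PaCa-2 at 51.8, 47.2 and 52.3 against 39.2, 42.0 and 39.4, a change of -0.33 (SE 0.08, adjusted p = 0.015), or -0.37 without control replicate 2. That call was lost under quantile normalization (-0.18), with a replicate block, and without control replicate 1 (-0.31) or 3 (-0.30) or knockdown replicate 1 (-0.31) or 3 (-0.31). The groups did not overlap in any of the lines. PSMD12 (chr17:67337916-67366627) was at 14.6, 13.7 and 13.7 against 16.7, 15.7 and 16.9 in PaTu 8988T, a rise of 0.23 (SE 0.05, adjusted p = 0.0056), and at 17.0, 16.5 and 17.9 against 14.8, 14.3 and 14.6 in PANC-1, a change of -0.23 (SE 0.04, adjusted p = 8.8e-04). The MIA PaCa-2 values were 36.2, 23.1 and 35.9 against 21.3, 22.1 and 21.0, and the change of -0.53 (SE 0.18) was not called at an adjusted p of 0.052. Without control replicate 2, the low control, the change was -0.75 (adjusted p = 2.5e-07). With a spread shared over all libraries, the calls of PSMD12 in PANC-1 and PaTu 8988T were lost and that in MIA PaCa-2 was made.

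The 3 chaperones of the 19S base, PSMD5, PSMD9 and PSMD10, gave 2 rises and 0 falls in PANC-1, 1 fall in MIA PaCa-2 (3 without control replicate 2) and no call in PaTu 8988T. PSMD10 (gankyrin, chrX:108084207-108091618) was at 79.0, 75.4 and 78.0 FPKM against 95.2, 89.0 and 90.8 in PANC-1, a rise of 0.24 (SE 0.03, adjusted p = 6.9e-05). PSMD5 (chr9:120815496-120842984) was at 18.2, 17.97 and 17.2 against 21.4, 19.3 and 21.3, a rise of 0.21 (SE 0.05, adjusted p = 0.0029). All knockdown libraries were above all controls for both genes, and the call of PSMD5 was lost with a spread shared over all libraries. In MIA PaCa-2 PSMD10 was at 55.9, 42.8 and 53.2 against 41.3, 44.8 and 46.3 and PSMD5 at 31.3, 23.0 and 30.9 against 24.3, 24.6 and 24.8, with overlap. Their changes of -0.19 and -0.19 were not called with 3 controls and were -0.31 (adjusted p = 4.8e-04) and -0.34 (adjusted p = 1.3e-05) without control replicate 2. In PaTu 8988T PSMD10 was at 21.4, 19.1 and 19.1 against 21.8, 21.3 and 22.8 and PSMD5 at 16.1, 17.2 and 16.1 against 17.5, 15.7 and 17.4, and neither was called (0.14 and 0.03, adjusted p = 0.061 and 0.71), although PSMD10 was called without control replicate 1 (0.20) or knockdown replicate 2 (0.17). PSMD9 had changes of -0.03, -0.44 and 0.06 in PANC-1, MIA PaCa-2 and PaTu 8988T, and only the fall in MIA PaCa-2 was called (-0.32 without control replicate 2).

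Among the 4 chaperones of the core, 1 fell and 1 rose in PANC-1, 2 fell in MIA PaCa-2 (2 fell and 1 rose without control replicate 2) and 2 rose in PaTu 8988T. So few genes give no result for the class beside the shares of all genes given above. PSMG1, which pairs with PSMG2 to assemble the alpha ring, lies at chr21:39174769-39183851. It was at 17.6, 17.4 and 18.05 FPKM against 15.7, 13.9 and 13.4 in PANC-1 (-0.30, SE 0.06, adjusted p = 0.0010). Values in MIA PaCa-2 were 51.4, 38.0 and 51.6 against 28.1, 26.3 and 26.0 (-0.80, SE 0.13, adjusted p = 0.0044), or -0.94 without control replicate 2. In PaTu 8988T the controls were at 19.005, 17.7 and 18.5 FPKM and the knockdown libraries at 19.7, 20.6 and 20.7, a rise of 0.14 (SE 0.05, adjusted p = 0.030). That call was lost by voom, with a replicate block, with the shared spread, and without control replicate 2 (0.12), control replicate 3 (0.15) or knockdown replicate 3 (0.13). PSMG2 rose in PANC-1 (0.17) and in PaTu 8988T (0.16), and its change of 0.30 in MIA PaCa-2 was not called and came to 0.09 (adjusted p = 0.023) without control replicate 2. PSMG3 (chr7:1567330-1571005) was at 42.0, 49.3 and 41.9 against 27.2, 27.2 and 27.0 in MIA PaCa-2, a change of -0.71 (SE 0.09, adjusted p = 0.0015), or -0.63 without control replicate 2. It was at 18.7, 22.0 and 18.8 against 20.4, 23.5 and 20.3 in PANC-1 (0.11, SE 0.07, adjusted p = 0.20, and called without control replicate 2 of that line, at 0.19, and with a replicate block) and at 11.5, 12.5 and 12.9 against 11.6, 12.4 and 12.4 in PaTu 8988T (-0.02, SE 0.06, adjusted p = 0.82), with overlap in each. Its partner PSMG4, at 1.12 to 3.25 FPKM over all libraries, was not called in any line.

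**Figure D3:**
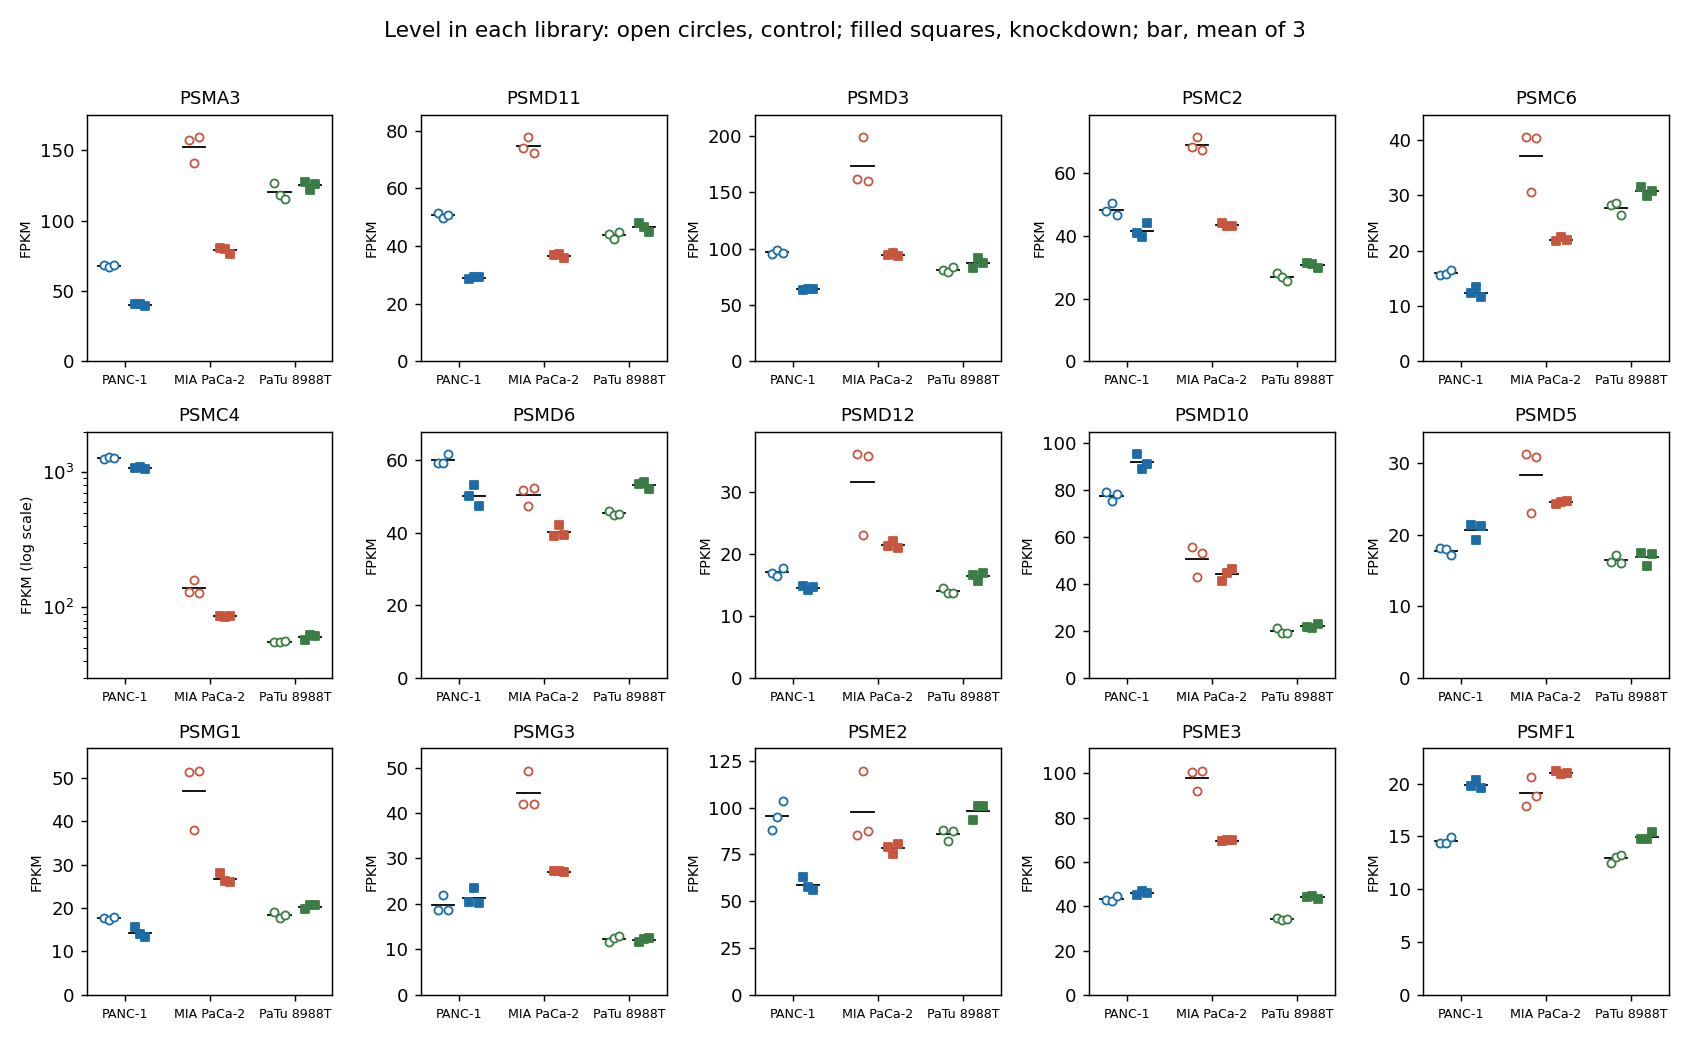
FPKM of 15 proteasome genes in each of the 18 libraries, with 3 control libraries (open circles) and 3 knockdown libraries (filled squares) per line and the mean of each group as a bar. All axes start at 0 except that of PSMC4, which is logarithmic. Control replicate 2 of MIA PaCa-2, the middle open circle of that line, is the highest or the lowest of its 3 controls in each panel.

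Of the 4 activator genes, 3 fell and 1 rose in PANC-1, 1 fell in MIA PaCa-2 (3 fell and 1 rose without control replicate 2) and 3 rose in PaTu 8988T. These counts too are of few genes and are to be read against the shares of all genes given above. PSME1 and PSME2, which form the interferon-inducible PA28 ring, both fell in PANC-1. PSME2 (chr14:24143362-24147570) was at 88.0, 94.8 and 104 FPKM against 62.8, 57.8 and 56.0 there (-0.70, SE 0.06, adjusted p = 2.5e-06). It was at 88.3, 82.2 and 87.7 against 93.2, 101 and 101 in PaTu 8988T, a rise of 0.19 (SE 0.05, adjusted p = 0.0084) whose call was lost with a spread shared over all libraries, and at 85.4, 120 and 87.4 against 78.9, 75.3 and 80.6 in MIA PaCa-2, where the change of -0.30 (SE 0.14, adjusted p = 0.12) became -0.14 (adjusted p = 0.0035) without control replicate 2. PSME1 had changes of -0.21, 0.12 and -0.02 in PANC-1, MIA PaCa-2 and PaTu 8988T, and only the fall in PANC-1 was called with all libraries, while in MIA PaCa-2 without control replicate 2 it was at 0.19 (adjusted p = 5.6e-04). PSME3 (chr17:42824385-42843758), which forms the nuclear PA28 gamma ring, was called in all lines but not in 1 direction. The PaTu 8988T values were 34.7, 33.8 and 34.3 against 44.3, 44.8 and 43.1, the largest rise of any member there (0.36, SE 0.04, adjusted p = 8.2e-05). In MIA PaCa-2 it was at 101, 91.8 and 101 against 69.4, 69.8 and 69.7, a change of -0.49 (SE 0.07, adjusted p = 0.0021), or -0.54 without control replicate 2. In PANC-1 it was at 42.6, 42.4 and 44.6 against 45.2, 46.9 and 46.1, a rise of 0.09 (SE 0.03, adjusted p = 0.026). That call was lost with a spread shared over all libraries and without control replicate 1 (0.08) or 2 (0.08) or knockdown replicate 2 (0.08) or 3 (0.09). PSME4, the PA200 activator, fell in PANC-1 (-0.15) and rose in PaTu 8988T (0.15), and in MIA PaCa-2 its change of -0.03 became -0.24 (adjusted p = 1.2e-04) without control replicate 2.

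PSMF1 (PI31, chr20:1113263-1189415) had a positive change in every line. In PANC-1 it was at 14.4, 14.4 and 14.9 FPKM against 19.8, 20.3 and 19.5, the largest rise of any member there (0.45, SE 0.04, adjusted p = 3.7e-06). In PaTu 8988T it was at 12.5, 13.1 and 13.2 against 14.7, 14.8 and 15.4 (0.21, SE 0.05, adjusted p = 0.0059). The MIA PaCa-2 values were 17.9, 20.7 and 18.8 against 21.2, 20.9 and 21.0, and the change of 0.14 (SE 0.08, adjusted p = 0.22) was not called, while without control replicate 2 it was 0.20 (adjusted p = 0.0011), and quantile normalization (0.25) and a shared spread also called it. All knockdown libraries were above all controls in each of the 3 lines.

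**Figure D4:**
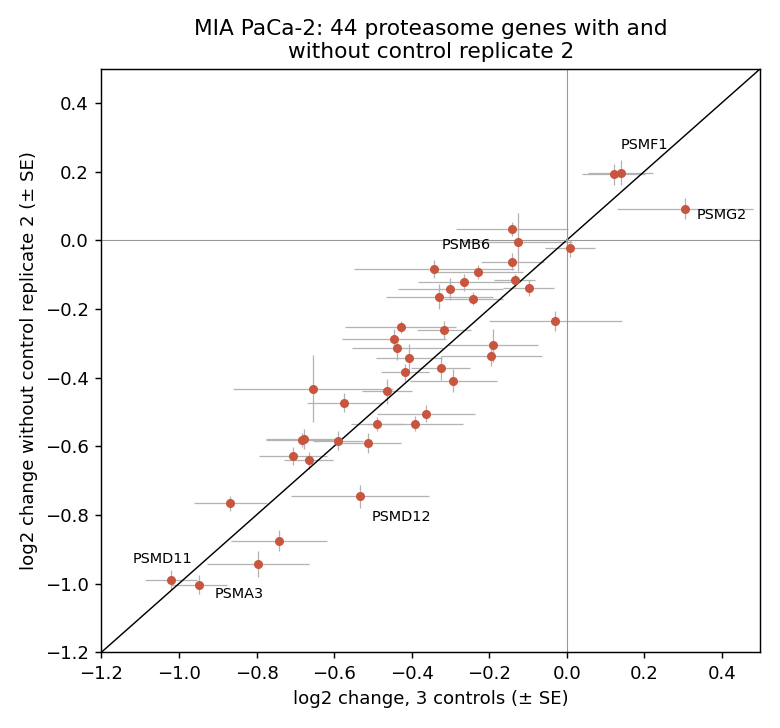
Log2 change of the 44 proteasome genes in MIA PaCa-2 with all 3 controls (x axis) and without control replicate 2 (y axis), each with its SE; the diagonal marks equal values. PSMD11 and PSMA3 stay near -1 on both axes, while PSMB6 and PSMD12 lie off the diagonal.

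The second question was whether the lines differed in their response, tested as the interaction of line and knockdown in 1 model with all 18 libraries (9083 genes). The gene lengths used for PANC-1 differed from those of the other lines for many genes. In PANC-1 10360 genes were at 0 in every library, against 6064 in MIA PaCa-2 and 5170 in PaTu 8988T. The part of this in the differences below was not tested. Between MIA PaCa-2 and PaTu 8988T, the change was lower in MIA PaCa-2 for 36 of 44 members and higher for 0 by limma (36 and 0 also at an unadjusted p below 0.05 and by voom), with 31.0% and 21.8% of all genes in these directions. The counts were 38 and 1 (41.4% and 29.5% of all genes) without control replicate 2 of MIA PaCa-2. All 7 beta and all 6 ATPase genes were among the 36. The median difference over members was -0.52, against -0.07 over all genes. Between PANC-1 and PaTu 8988T, the change was lower in PANC-1 for 27 members and higher for 1 (PSMF1, by 0.24), with 18.7% and 17.1% of all genes, and the median difference was -0.36 against 0.02. Without the same library, which is of neither line but is in the fit, the counts were 34 and 2 (29.3% and 29.8%), and the 1 higher change was not called without knockdown replicate 2 of PANC-1 or without control replicate 2 or 3 or knockdown replicate 1 or 2 of PaTu 8988T. All 6 ATPase genes and 10 of 11 non-ATPase genes were among the 27. Between PANC-1 and MIA PaCa-2, 16 members had a higher change in PANC-1 and 3 a lower one, with 26.1% and 17.3% of all genes, and the median difference was 0.16 against 0.07. The total of 19 is 43.2% of the members, and 43.4% of all genes had a called difference here. The 16 came to 7 under quantile normalization and to 22 (39.2% of all genes) without control replicate 2 of MIA PaCa-2, and the 3 to 5 (25.1%) without that library and to 1 without control replicate 2 or 3 or knockdown replicate 2 or 3 of PANC-1, or without knockdown replicate 1 or 3 of MIA PaCa-2. The 16 held 4 of the 6 ATPase genes, 1 of the 7 alpha genes and all 3 of the 19S base chaperones.

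The genes around the proteasome were taken from 6 lists of pathway genes written from general knowledge, in which 83 genes stand. Their counts are to be read against the shares of all genes that fell and rose, 32.2% and 40.1% in PANC-1, 21.7% and 18.7% in MIA PaCa-2 (39.8% and 35.4% without control replicate 2) and 18.5% and 20.9% in PaTu 8988T. Over all 83 genes, 44 fell and 27 rose in PANC-1, 27 fell and 12 rose in MIA PaCa-2, while PaTu 8988T had 10 falls and 25 rises. Of the 14 proteasome partners outside the naming rule, 4 fell and 7 rose in PANC-1, 4 fell and 1 rose in MIA PaCa-2, and 1 fell and 3 rose in PaTu 8988T, with list medians of 0.05, -0.20 and 0.07. The MIA PaCa-2 counts were 10 and 2 without control replicate 2. The most certain were the ligase UBE3C, which rose in PANC-1 (0.48, adjusted p = 8.0e-07) and in PaTu 8988T (0.22, adjusted p = 0.0020), the phosphatase UBLCP1, which fell in PANC-1 (-0.68, adjusted p = 1.5e-06), and in MIA PaCa-2 PITHD1 (-0.41, adjusted p = 0.0062) and the base chaperone PAAF1 (0.58, adjusted p = 0.013). In PaTu 8988T the second was FBXO7 (0.11, adjusted p = 0.032), a partner of PSMF1.

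Of 12 genes of ubiquitin supply, 4 fell and 6 rose in PANC-1, 2 fell and 3 rose in MIA PaCa-2 (2 and 5 without control replicate 2), and 1 fell and 6 rose in PaTu 8988T. RPS27A, which encodes ubiquitin fused to a ribosomal protein, rose in PANC-1 (0.58, adjusted p = 1.3e-08) and MIA PaCa-2 (0.35, adjusted p = 0.0016). The polyubiquitin gene UBB rose in PaTu 8988T (0.18, adjusted p = 0.0031). The conjugating enzyme UBE2R2 rose in PANC-1 (0.51, adjusted p = 3.4e-07). Of 16 shuttle factors and VCP partners, 8 fell and 4 rose in PANC-1, 9 fell and 0 rose in MIA PaCa-2 (10 and 3 without control replicate 2), and 2 fell and 4 rose in PaTu 8988T. VCP, the unfoldase that hands substrates on, fell in PANC-1 (-0.31, adjusted p = 1.0e-06), as did FAF2 (-0.47, adjusted p = 6.8e-07). The smallest adjusted p of the list in MIA PaCa-2 was that of UBQLN4 (-0.71, adjusted p = 0.0026), which also fell in PaTu 8988T (-0.26, adjusted p = 0.0022), where RAD23B rose (0.22, adjusted p = 0.0016).

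Of 15 genes that control transcription of proteasome genes, 7 fell and 6 rose in PANC-1, 2 fell and 3 rose in MIA PaCa-2 (5 and 7 without control replicate 2, the list median moving from -0.02 to 0.09), and 3 fell and 6 rose in PaTu 8988T. NFE2L1 was at 188 FPKM in the controls and 122 in the knockdown libraries of PANC-1 (-0.62, adjusted p = 3.3e-09) and at 153 and 122 in PaTu 8988T (-0.32, adjusted p = 1.3e-04). In MIA PaCa-2 its means were 55.4 and 46.6 and the change of -0.24 was not called (adjusted p = 0.088), while without control replicate 2 it was -0.15 and called (adjusted p = 0.0026). The fall of NFE2L1 stood beside falling subunit genes in PANC-1 and beside rising ones in PaTu 8988T. These are RNA levels, and the part of NFE2L1 in the changes of the subunit genes was not tested. DDI2, the protease that activates NFE2L1 and a member of the shuttle list too, fell in each line, with changes of -0.63 (PANC-1, adjusted p = 5.6e-05), -0.92 (MIA PaCa-2, adjusted p = 0.0035) and -0.42 (PaTu 8988T, adjusted p = 0.010). NFE2L2 fell in PANC-1 (-0.52, adjusted p = 6.0e-08). The most certain in MIA PaCa-2 were STAT3 (0.83, adjusted p = 3.1e-04) and NFYA (-0.94, adjusted p = 5.5e-04), a subunit of the CCAAT-binding factor, and in PaTu 8988T also MAFK (0.44, adjusted p = 1.6e-04), a partner of NFE2L1.

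Of 15 chaperone genes, 11 fell and 3 rose in PANC-1 and 10 fell and 1 rose in MIA PaCa-2, with list medians of -0.17 and -0.58, while of 14 tested in PaTu 8988T 0 fell and 5 rose, with a median of 0.09. DNAJB1 (-0.58, adjusted p = 8.9e-08) and HSP90AB1 (-0.24, adjusted p = 4.2e-07) fell in PANC-1, and HSPA8 (-0.99, adjusted p = 1.7e-04) and HSPA1B (-1.86, adjusted p = 1.9e-04) fell in MIA PaCa-2. The counts of MIA PaCa-2 were 10 and 3 without control replicate 2. HSPA1A and HSPA1B are near-identical copies, so their split is uncertain. The mitochondrial chaperones HSPD1 (0.21, adjusted p = 0.0018) and HSPE1 (0.32, adjusted p = 0.0061) rose in PaTu 8988T. Of 12 genes of the immunoproteasome and antigen presentation, 11 fell and 1 rose in PANC-1, 1 fell and 4 rose in MIA PaCa-2 (2 and 7 without control replicate 2), and 4 fell and 1 rose in PaTu 8988T. TAPBP (-0.77, adjusted p = 3.1e-09) and TAP2 (-0.85, adjusted p = 5.1e-07) fell in PANC-1, TAP2 fell in MIA PaCa-2 (-1.11, adjusted p = 0.0028), where PSMB8 rose (0.91, adjusted p = 0.0076), and HLA-B (-0.50, adjusted p = 1.6e-05) fell in PaTu 8988T.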

How the data were processed

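RNA sequencing libraries, 18 in all and 3 per group, were analysed, with groups taken from the sample titles. The labels name an RNeasy extraction and a SMARTer library kit, whereas the methods of the study name TRIzol, a VAHTS kit, HISAT2 and HTSeq-count. The submitters' processing notes list the builds hg38, mm10 and GRCm38 without a role, and whether counting used strand is not given in the sources used here. The authors deposited FPKM values, 1 column per library, and reads per gene were recovered from them as whole multiples of a unit per gene and library (tolerance 0.001 reads), for all genes kept in each line.

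Per line, only genes averaging 1 FPKM or more entered. Their log2(FPKM + 0.1) was fitted with limma 3.58.1 (lmFit, eBayes with trend, R 4.3.3). The Benjamini-Hochberg adjustment ran over all genes of that line. SEs are moderated. Differences between lines were interaction terms in 1 fit. The fits were also run on simulated normal values with 1 common spread and planted changes larger than those of most members. Such values hold no library that stands apart, so that run does not test the fits for that case or for small changes. An exact permutation test of 3 against 3 libraries cannot give p below 0.1. The tests of the study on counts were not used because the table holds FPKM. No 2 replicates differed by less than counting noise.

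The members and lists were chosen with earlier results of these data known. Values in every library were given for the 3 largest called rises and falls per line, members past the fold threshold, up to 6 called in opposite directions, and the 3 largest called differences per pair of lines. From each pathway list the 2 genes with the smallest adjusted p per line were named, except for some that are not reported here. DDI2 in PANC-1 and PaTu 8988T, NFE2L1 in MIA PaCa-2, PSMB6, PSMD9, PSMG2, PSMG4, PSME1, PSME4, PSMB5 and PSMB10 were named outside this rule after their values were seen. Alternatives were a pseudocount of 1, no filter, a mean of at least 5 FPKM, equal library medians, quantile normalization, a replicate block, voom on the recovered reads, a spread shared over all libraries, and each library left out.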

Additional observations from a re-analysis of the deposited data

Results flagged for a closer look

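Single proteasome genes differed between lines in their response by the interaction test in limma. In MIA PaCa-2 minus PaTu 8988T, 36 members had a called difference, the largest for PSMD11 (-1.105 on the log2 scale), PSMA3 (-1.005) and PSMD3 (-0.97), and 52.9% of all genes had one. Without control replicate 2 of MIA PaCa-2 the largest were PSMG1 (-1.09), PSMD11 (-1.07), PSMA3 (-1.06) and PSMC6 (-1.02), and PSMD3 was at -0.87. In PANC-1 minus PaTu 8988T, 28 members had one, the largest for PSME2 (-0.89), PSMD11 (-0.88) and PSMA3 (-0.81), and 35.8% of all genes had one. In PANC-1 minus MIA PaCa-2, 19 members had one, the largest for PSMG3 (0.82), PSME3 (0.58) and PSMG1 (0.49), and 43.4% of all genes had one, so that the share of members, 43.2%, is near that of all genes. Without control replicate 2 of MIA PaCa-2 these last 3 differences were 0.74, 0.63 and 0.64 and were called.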

How the results depend on the processing

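The direction of the median change of the 44 members was the same in each line under every alternative run. Quantile normalization moved it to -0.19 in PANC-1, -0.26 in MIA PaCa-2 and 0.0795 in PaTu 8988T, and gave 2 rises in MIA PaCa-2, 13 in PaTu 8988T and 7 members above 0 in PANC-1 minus MIA PaCa-2. A spread shared over all libraries gave 3 rises in PANC-1, 2 in MIA PaCa-2 and 6 in PaTu 8988T. With no filter on low values 13 members rose in PaTu 8988T. With library medians set equal, 5 members were below 0 in PANC-1 minus MIA PaCa-2 and 1 was above 0 in MIA PaCa-2 minus PaTu 8988T, which was also 1 under quantile normalization. The cause of these shifts was not tested. With each library left out in turn, falls numbered 30 to 32, 15 to 37 and 0 to 0 in PANC-1, MIA PaCa-2 and PaTu 8988T, rises 5 to 6, 0 to 3 and 11 to 24, and the median change ran from -0.24 to -0.19, from -0.43 to -0.34 and from 0.10 to 0.13. Members below 0 then numbered 1 to 5, 23 to 34 and 32 to 38 in PANC-1 minus MIA PaCa-2, PANC-1 minus PaTu 8988T and MIA PaCa-2 minus PaTu 8988T, and members above 0 14 to 22, 0 to 2 and 0 to 1. Leaving out control replicate 2 of MIA PaCa-2 gave the 37 falls and 3 rises, and 4287 falls and 3811 rises over all genes against 2338 and 2012. A replicate block gave 31 falls and 7 rises in PANC-1, 20 falls in MIA PaCa-2 and 17 rises in PaTu 8988T, 1 member below 0 in PANC-1 minus MIA PaCa-2 and 0 above 0 in PANC-1 minus PaTu 8988T. The numbers were not taken as pairs, since correlations of same-numbered deviations ran from -0.11 to 0.13, and not every library correlated best with its own number. Voom on the recovered reads gave 31 falls and 5 rises in PANC-1, 21 falls in MIA PaCa-2 and 21 rises in PaTu 8988T. Of 630 values of the named members under alternatives, 579 kept their side of the threshold, 36 lost a call and 15 gained one.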

Other observations

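The high level of PSMC4 in PANC-1 was shared by genes beside it on chromosome 19. Of the 12 protein-coding genes of the table on each side, 17 had controls in each line at or above the level set for the comparison (reads on the gene per 1e6 counted reads, at least 1). Among these, 11 (RPS16, SUPT5H, TIMM50, EID2, DYRK1B, FBL, ZNF546, ZNF780B, ZNF780A, MAP3K10 and AKT2) were over 5 times as high in PANC-1 controls as in those of both other lines, whereas C19orf47, PLD3, PRX and SERTAD3, which follow AKT2, were within 2-fold. EID2B and SERTAD1 fell in neither set. On the same scale AKT2 was at 2248 in PANC-1, 182 in MIA PaCa-2 and 141 in PaTu 8988T, and PSMC4 at 2232, 244 and 97.7.

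GENCODE v29 on GRCh38 names 32 pseudogenes after 12 of the 44 members, 13 of them after PSMC1, and 0 of these symbols are in the table. Exons of 17 members overlap exons of a gene on the opposite strand and those of 7 a gene on the same strand. For PSMC1 the overlap with NRDE2 covers 75.8% of its exon bases, and for PSMD7 an antisense gene covers 30.7%. Without strand, reads of such partners cannot be told apart, and reads of near-identical copies could be split.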
